A study of Homo sapiens with 2 samples.

Results

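Contacts of the genes for the Notch receptors NOTCH1, NOTCH2 and NOTCH3 and the Jagged ligands JAG1 and JAG2 were examined in a list of H3K27ac HiChIP loops from KYSE180, an established line of esophageal squamous cell carcinoma (ESCC). HiChIP ligates DNA ends that lie close together in the nucleus and enriches pairs carrying a chosen mark, here H3K27ac, which is found on active promoters and enhancers. The cells of both libraries were grown in culture and received a non-targeting siRNA, so the list describes 1 condition and 1 cell line, and no treatment was compared. The authors deposited 1 list of loops for the 2 libraries, so values have no replicate spread and could not be tested across samples. The study's methods describe the loops sought as active loops associated with p63, and loops were kept only with H3K27ac at both ends. The peaks used to select them are not given in the sources used here, so the list may not hold all H3K27ac loops of these cells, and a low count or a count of 0 at a gene refers to the loops so selected. A loop joins 2 bins (anchors) of 2 kb and carries the number of contacts between them. A loop was counted for a gene when either bin overlapped the window from 10 kb upstream to 10 kb downstream of its 5′ end, on the hg19 build. All 5 genes lie on the minus strand, so upstream positions are the higher ones. Of the 31950 loops in the list, 37 met this rule, with 38 contacts in all, and 0 of them joined the windows of different genes. The list holds no expression values, so the identity of the cells was not checked against marker genes.

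Notch receptors are transmembrane proteins that are activated by ligands on a neighbouring cell. Ligand binding leads to cleavage by ADAM proteases and gamma-secretase, and the released intracellular domain joins RBPJ and a Mastermind protein in the nucleus to activate targets such as the HES and HEY repressors. In stratified squamous epithelium, including that of the esophagus, Notch signalling promotes the exit of basal cells, which express p63, towards differentiation. Jagged proteins are 1 of the families of ligands, beside the Delta-like proteins. The other genes of the pathway, such as HES1, RBPJ or DLL1, were not placed, because no gene positions on hg19 were used here beyond the 5′ ends of the 5 genes.

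The reference sequence just upstream of the 5′ ends is shown for the genes whose 5′ end lay in a looped bin (NOTCH1, JAG1 and JAG2). It is also shown for NOTCH2, whose sequence was compared with that of partial copies of the gene. Sequences and their positions are those of RefSeq on GRCh38.p14, on the minus strand, and give the 250 bases before the annotated 5′ end. Whether these 5′ ends are the same as those used on hg19 was not tested. Capitals mark CpG dinucleotides in the first 3 sequences. In the sequence of NOTCH2 they mark the run identical to the promoter record of NOTCH2NLA, a partial copy of NOTCH2 on the same chromosome. That record begins where the capitals begin, so the bases in lower case were not compared. The positions are chr9:136546049-136546298 for NOTCH1, chr20:10674000-10674249 for JAG1, chr14:105168777-105169026 for JAG2 and chr1:120069663-120069912 for NOTCH2.
NOTCH1: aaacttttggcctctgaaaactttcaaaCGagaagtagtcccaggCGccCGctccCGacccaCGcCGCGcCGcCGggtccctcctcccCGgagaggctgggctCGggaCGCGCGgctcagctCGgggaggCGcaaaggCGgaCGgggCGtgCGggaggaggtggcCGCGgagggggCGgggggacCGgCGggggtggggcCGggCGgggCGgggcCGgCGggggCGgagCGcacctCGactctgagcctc
JAG1: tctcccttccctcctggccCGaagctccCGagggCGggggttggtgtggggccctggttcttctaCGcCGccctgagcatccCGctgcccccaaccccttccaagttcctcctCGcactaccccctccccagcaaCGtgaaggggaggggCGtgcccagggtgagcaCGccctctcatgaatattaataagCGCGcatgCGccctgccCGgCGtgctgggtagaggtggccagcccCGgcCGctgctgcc
JAG2: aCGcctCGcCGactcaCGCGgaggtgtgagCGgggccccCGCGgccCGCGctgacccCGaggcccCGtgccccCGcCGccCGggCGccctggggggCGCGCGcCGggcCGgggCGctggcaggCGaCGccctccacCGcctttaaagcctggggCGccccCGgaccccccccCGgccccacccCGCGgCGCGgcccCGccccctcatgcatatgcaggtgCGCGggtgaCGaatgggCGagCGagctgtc
NOTCH2: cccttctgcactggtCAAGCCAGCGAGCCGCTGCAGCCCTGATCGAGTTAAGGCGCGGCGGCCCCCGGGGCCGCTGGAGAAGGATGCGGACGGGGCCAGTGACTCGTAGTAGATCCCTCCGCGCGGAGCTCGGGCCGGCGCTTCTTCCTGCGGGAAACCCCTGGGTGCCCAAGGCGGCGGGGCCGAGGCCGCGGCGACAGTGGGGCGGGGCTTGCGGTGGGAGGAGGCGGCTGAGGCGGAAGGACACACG

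The 5 promoters were rich in G and C. The GC content was 76.0% at NOTCH1, 72.8% at NOTCH2, 78.0% at NOTCH3, 68.4% at JAG1 and 81.6% at JAG2, against a median of 58.0% (interquartile range 46.4 to 68.0%) over 35114 promoter records of the same length. JAG1 had the fewest CpG dinucleotides of the 5, with 17, and JAG2 the most, with 38. NOTCH1 had 33, NOTCH2 29 and NOTCH3 28, and the median of all promoters was 11 (interquartile range 3 to 23). The core of the RBPJ motif (TGGGAA, either strand) occurred in 0 of the 5 promoters and in 20.8% of all promoters. The AP-1 motif (TGANTCA, either strand) occurred in 0 of 5 and in 6.57% of all. The p63 pattern, which was CNNG, then any 6 bases, then CNNG, and which reads the same on either strand, occurred in 5 of 5 and in 68.6% of all promoters. These matches describe the letters of short windows, and matches to the p63 pattern may overlap one another. This pattern is a loose one that fixes only C and G bases, and all 5 promoters lay above the upper quartile of GC content. Its matches are therefore not read as sites of p63.

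The genes differed in how many loops they carried. NOTCH1 had 17 loops (exact 95% Poisson interval 9.90 to 27.2, which like all intervals here covers counting error only). JAG1 had 12 loops (6.20 to 21.0) and JAG2 had 6 (2.20 to 13.1). NOTCH3 had 2 loops (0.242 to 7.22), and NOTCH2 had 0 (0 to 3.69). The interval of NOTCH1 did not overlap those of NOTCH3 and NOTCH2, and the interval of JAG1 did not overlap that of NOTCH2. Neighbours in the order NOTCH1, JAG1, JAG2, NOTCH3 and NOTCH2 were not separated by their intervals. Together the 3 receptor genes had 19 loops and the 2 ligand genes 18, and the median over the 5 genes was 6.

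**Figure D1:**
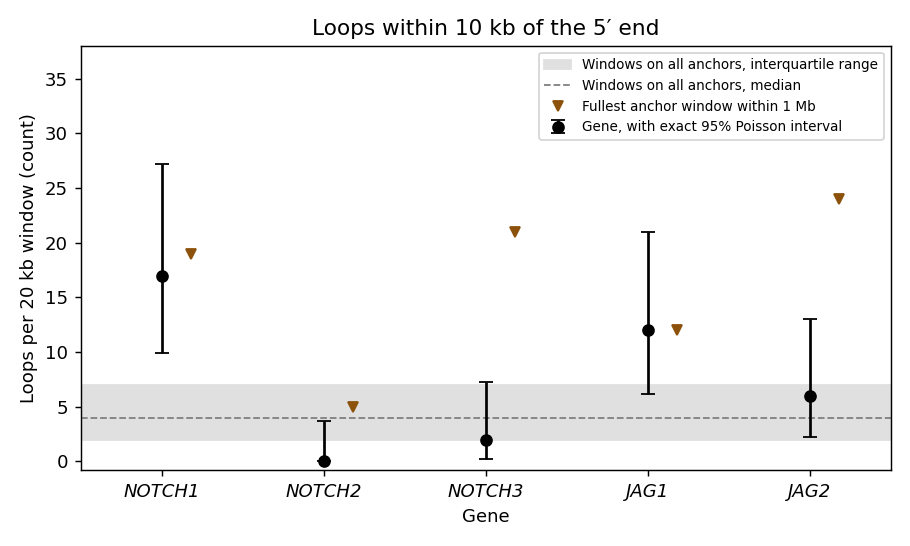
Loops with a bin within 10 kb of the 5′ end of each gene (points; vertical axis, count of loops per 20 kb window), with exact 95% Poisson intervals. The grey band and dashed line give the interquartile range (2 to 7) and median (4) of windows centred on all anchors, and the triangles the fullest such window within 1 Mb of the gene. NOTCH1, at 17, and JAG1, at 12, lie above the band, and NOTCH2, at 0, lies below it.

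For scale, a window of 20 kb was centred on each of the 34902 anchors of the list, and these windows held a median of 4 loops (interquartile range 2 to 7). As many loops as at NOTCH1 were found in 5.54% of these windows, as many as at JAG1 in 11.3%, as many as at JAG2 in 33.6% and as many as at NOTCH3 in 80.9%. JAG2 thus lay within the interquartile range and NOTCH3 at its lower end. Every one of these windows holds at least 1 loop by construction, which a gene need not do. When each chromosome was tiled end to end from its first to its last anchor instead, 13.0% of 145539 tiles of 20 kb held a loop, and 4 of the 5 genes did. Each bin fell in 1 tile only, whereas windows also counted bins that overlapped their edges. Neither set is made of promoters, so the shares describe the list and do not compare these genes with other genes.

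The loops of the 5 genes rested on single contacts as those of the list did. A loop of JAG2 had 2 contacts, and the other 36 loops had 1 each. This gives 2.70% of loops with 2 or more contacts (95% Wilson interval 0.479 to 13.8%), against 3.36% (3.16 to 3.56%) in the whole list. For a single contact the exact Poisson bounds are 0.0253 and 5.57. Spans at the 5 genes were between 10 and 1608 kb, the median being 84 kb with quartiles at 46 and 328 kb. In the list the median was 120 kb (36 to 398 kb), within the interquartile range of the 37 loops.

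NOTCH1, the receptor gene with the most loops, was anchored at its 5′ end itself. Its 5′ end (position 139440238 on chromosome 9) lies in the bin from 139440001 to 139442000, which had 7 of the 17 loops. The bin from 139432001 to 139434000, which lies inside the gene, had 5 loops. The 3 bins between these had 1, 1 and 2 loops, and a bin at the upstream edge of the window, from 139450001 to 139452000, had 1. Looped bins thus formed an unbroken run from the 5′ end into the first 8 kb of the gene. As first bins, the 5 bins of this run had coverages (read as the count of contacts of the bin whether or not they are listed as loops) of 35 at the 5′ end and then of 29, 7, 26 and 24 further into the gene. The median over the 21636 first bins of the list was 12 (interquartile range 8 to 20), and over the 79 other first bins within 1 Mb of NOTCH1 it was 11 (8 to 18). The bin with a coverage of 7 thus lay below the lower quartile of the list and the other 4 above its upper quartile. The bin with the highest coverage, 35, had the most loops, 7. The bins with coverages of 29, 26, 24 and 7 had 2, 1, 5 and 1 loops. The part of coverage in the number of loops was not tested.

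Of the 17 loops of NOTCH1, 11 ran upstream and 6 downstream. The nearest upstream partners were 3 touching bins, 24.8, 26.8 and 28.8 kb from the 5′ end, and each was reached from a different bin of NOTCH1. Together they form a stretch of 6 kb, from 139464001 to 139470000. Further upstream partners lay at 50.8, 76.8, 144.8, 260.8 and 342.8 kb, and the longest loops reached 676.8, 936.8 and 1605 kb. The 4 upstream loops of the bin of the 5′ end, to 28.8, 144.8, 260.8 and 342.8 kb, each went to a bin with no other loop in the list. The next protein-coding gene upstream of NOTCH1 in RefSeq on GRCh38 is EGFL7, which encodes a secreted protein of endothelial cells. Partners were not assigned to genes. Downstream, partners lay at 11.2, 17.2, 25.2, 61.2, 327.2 and 1395 kb. The RefSeq gene is 51.6 kb long on GRCh38, so the first 3 of these lie within its length. Taken over that whole length, NOTCH1 had 23 loops at 9 bins, and 3 of them had both ends in the gene.

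**Figure D2:**
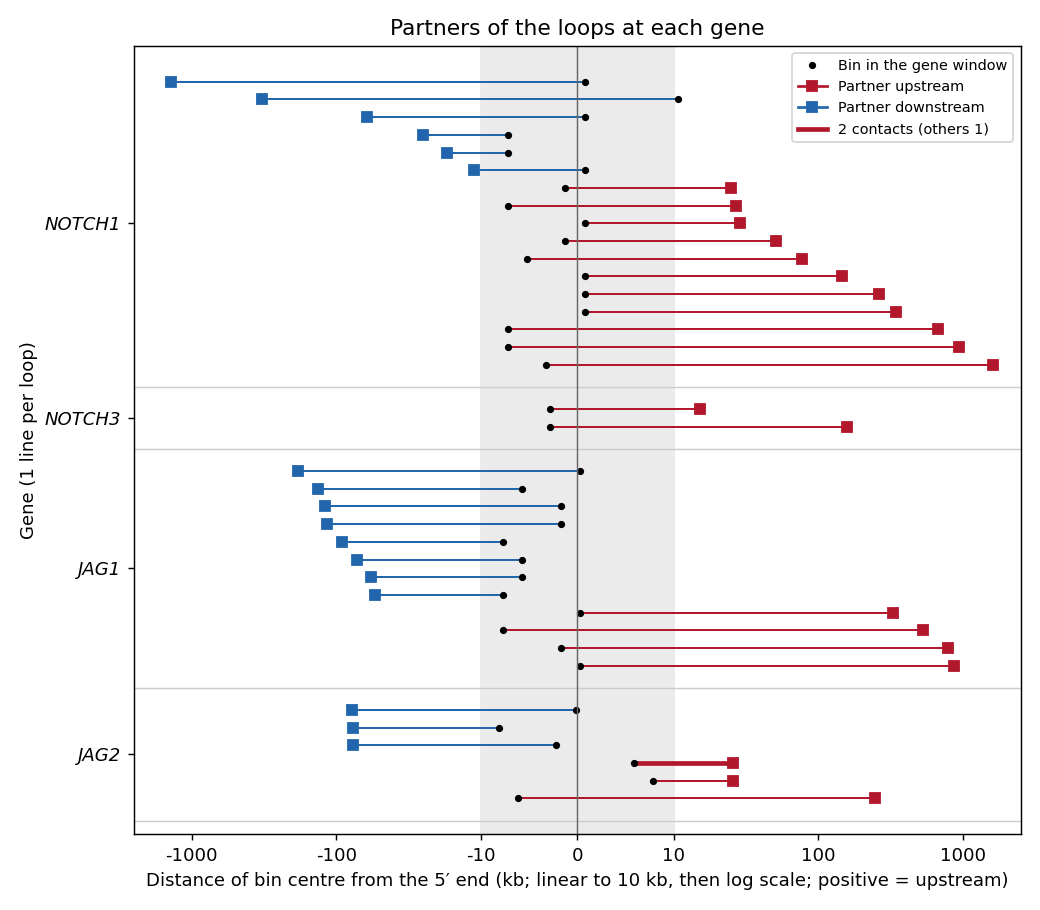
Each line is 1 loop of NOTCH1, NOTCH3, JAG1 or JAG2, from the bin in the gene window (black point) to its partner (square; red upstream, blue downstream), by distance from the 5′ end in kb (linear to 10 kb, then logarithmic). NOTCH2 had no loop. Upstream partners of JAG1 lie at 328.3 kb and beyond, while those of NOTCH1 begin at 24.8 kb.

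The partners of NOTCH1 were in part joined to one another across its 5′ end. A loop of 50 kb joined the partner 25.2 kb downstream to the partner 24.8 kb upstream, and a loop of 94 kb joined those 17.2 kb downstream and 76.8 kb upstream. Both of these loops passed over the 5′ end without ending near it. Within 1 Mb of NOTCH1, 140 loops had an end. Of the 136 windows centred on anchors in that range, which include those that overlap the window of NOTCH1, 6 held 17 loops or more and the fullest held 19. The fullest was centred 7.2 kb inside NOTCH1.

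NOTCH3 encodes a receptor best known from vascular smooth muscle. It had 2 loops, and both started in the bin from 15308001 to 15310000 on chromosome 19, which lies just inside the gene. The bin of the 5′ end itself (position 15311792) had 0 loops. Both loops ran upstream, to bins 15.2 and 157.2 kb from the 5′ end. The first of these partners had 3 other loops, all of which ran further upstream, to 25.2, 35.2 and 109.2 kb. The first bin of the loops of NOTCH3 had a coverage of 6, against a median of 12 (interquartile range 7.5 to 17) over 59 other first bins within 1 Mb. The surroundings were not short of loops: 114 loops had an end within 1 Mb, and the fullest window there held 21. With the window widened to 20 kb on either side, the count of NOTCH3 was 6 instead of 2. The partner at 15.2 kb then fell inside the window, and its 3 other loops were among those added.

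NOTCH2 had no loop within 10 kb of its 5′ end (position 120612276 on chromosome 1) in this list of loops selected as associated with p63. The nearest anchor on the downstream side lay 95.3 kb away, within the 158.1 kb of the RefSeq gene, and the nearest on the upstream side lay 226.7 kb away. The anchor inside the gene, from 120516001 to 120518000, had 1 loop of 1 contact, which ran away from the 5′ end to a bin 353.3 kb downstream of it. Over that length of NOTCH2 this was the only loop. The surroundings held few loops too, since 15 loops had an end within 1 Mb and the fullest window there held 5. The 11 first bins within 1 Mb had a median coverage of 13 (interquartile range 10.5 to 18.5), close to that of the list. Coverage is given only for first bins of listed loops. Bins within 10 kb of the 5′ end therefore have no value, and their coverage is not known. Sequence at the 5′ end of NOTCH2 recurs in the GRCh38 reference. Neither hg19, on which the loops were placed, nor the rest of the stretch without an anchor was searched for copies. Between promoter records of 300 bases, the identical run was at least 246 bases in NOTCH2NLA and at least 229 in 1 record of NOTCH2NLB. In these records the run reached the edge of the record. Another record of NOTCH2NLB had a longest run of only 8 bases. The run was 189 bases in NOTCH2NLC and 148 in NOTCH2NLR, against 11 and 10 bases in NOTCH1 and NOTCH3. Of the 250 bases printed for NOTCH2, 235 lie in the run shared with NOTCH2NLA. How the authors treated reads that fit several places is not given in the sources used here, and the part of these copies in the missing loops was not tested.

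JAG1, a ligand gene, had 12 loops at 4 bins with 3 loops each. The 5′ end (position 10654694 on chromosome 20) lies in the bin from 10654001 to 10656000, and the other bins started at 10652001, 10648001 and 10646001. All 4 bins thus lie at the 5′ end or within the first 10 kb of the gene, and no bin further upstream in the window had a loop. The next anchor upstream of the window lay 72.3 kb from the 5′ end. The bins used as first bins had coverages of 13 at the 5′ end and of 30 and 26 inside the gene. The 30 other first bins within 1 Mb of JAG1 had a median coverage of 4.5 (interquartile range 3 to 7). The 3 bins of JAG1 with a coverage value thus lay above the upper quartile of their surroundings. Against the whole list (median 12, interquartile range 8 to 20), the bin of the 5′ end lay within the quartiles. The bins with 30 and 26 lay above them. By loops per bin they did not stand apart, since the partners 115.7, 91.69 and 71.69 kb downstream also had 3 loops each. The part of coverage in the number of loops was not tested.

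The loops of JAG1 fell into a near downstream set and a far upstream set. The 8 downstream loops spanned 46 to 184 kb, with partners 53.7, 57.7, 71.7, 91.7, 115.7, 119.7, 133.7 and 183.7 kb from the 5′ end. The 4 upstream loops spanned 328 to 870 kb, with partners at 328.3, 530.3, 782.3 and 870.3 kb. The spans of the 2 sets did not overlap. The RefSeq gene is 36.3 kb long on GRCh38, so all 8 downstream partners lie beyond its length. The next protein-coding gene on that side is SLX4IP, which encodes a partner of the SLX4 nuclease scaffold. On the upstream side the next protein-coding gene is BTBD3. As first bins, the downstream partners had coverages of 3 to 10.

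**Figure D3:**
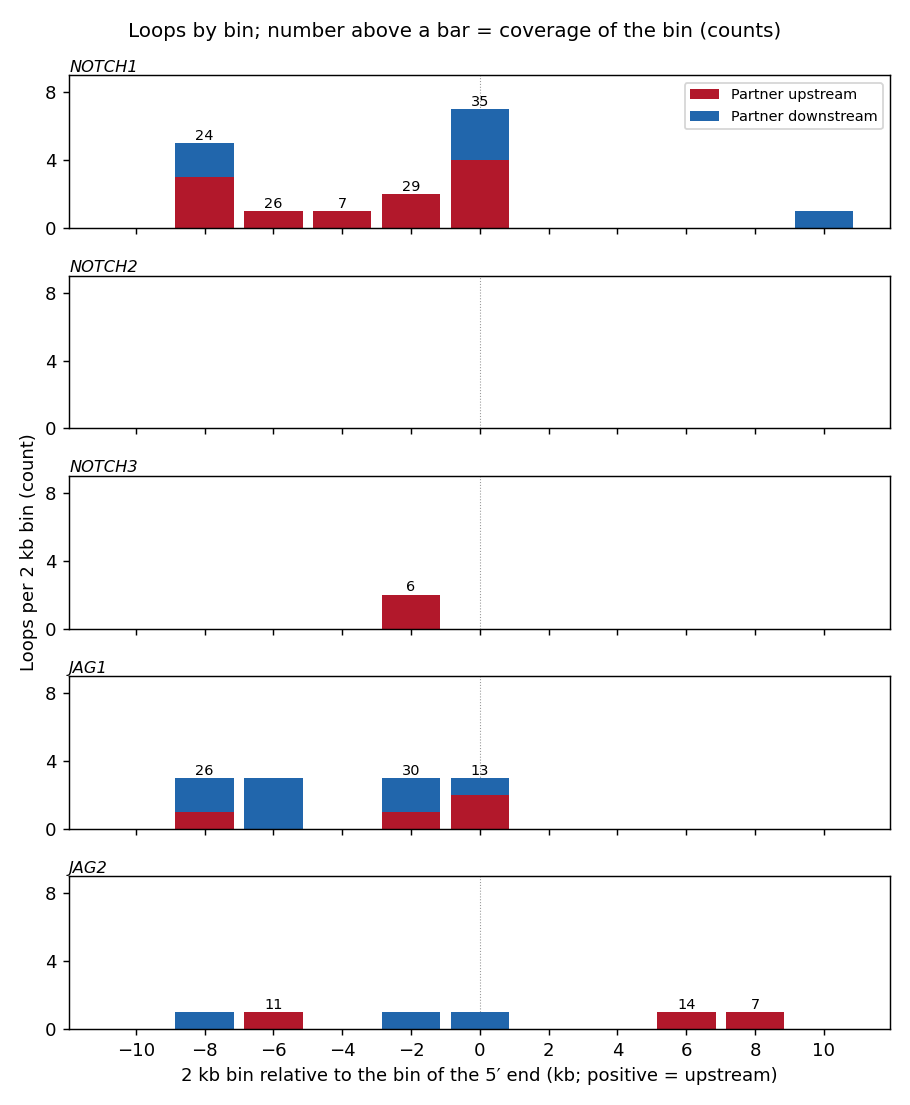
Loops per 2 kb bin (vertical axis, count) by position relative to the bin of the 5′ end (horizontal axis, kb, positive upstream), split by whether the partner lies upstream (red) or downstream (blue). The number above a bar is the coverage of the bin in counts, given where the bin is the first bin of a loop. NOTCH1 peaks at the bin of its 5′ end with 7 loops, JAG1 has 3 loops in each of 4 bins, and the panel of NOTCH2 is empty.

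The downstream partners of JAG1 were also joined to one another. A loop of 18 kb joined the partners at 133.7 and 115.7 kb, a loop of 24 kb those at 115.7 and 91.7 kb, and a loop of 48 kb those at 119.7 and 71.7 kb. Hence 5 of the 8 downstream partners shared a loop with another partner. The partners at 119.7 and 115.7 kb were both reached from the bin next to the 5′ end. Within 1 Mb, 43 loops had an end. Of the 57 windows on anchors there, 4 held 12 loops, the most of any, and these windows overlap that of JAG1.

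JAG2, the other ligand gene, had 6 loops spread over 6 bins with 1 loop each. Its 5′ end (position 105635161 on chromosome 14) lies in the bin from 105634001 to 105636000. The coverage, known for 3 of these bins, was 11, 14 and 7, against a median of 13 (interquartile range 9 to 18) over 35 other first bins within 1 Mb. The 6 loops converged on 4 partner bins. The 3 downstream loops went to a pair of touching bins 76.2 and 78.2 kb from the 5′ end, beyond the 27.8 kb of the RefSeq gene. Of the 3 upstream loops, 2 went to the same bin 25.8 kb from the 5′ end, from 105660001 to 105662000, and the third went to a bin at 247.8 kb. The loop with 2 contacts was 1 of those to the bin at 25.8 kb and spanned 20 kb.

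Each partner of JAG2 had further loops of its own. The bin 76.2 kb downstream, from 105558001 to 105560000, had 9 loops and a coverage of 59. Beside its 2 loops to JAG2 it was joined to bins on both sides of the gene, and 3 of its other 7 loops passed over the 5′ end of JAG2, the longest of them to a bin 305.8 kb upstream with 2 contacts. The bins at 78.2 kb downstream and 25.8 kb upstream each had 4 loops and were joined to each other by a loop of 104 kb that passed over JAG2. None of the partner bins of JAG2 or NOTCH3 had only its loop to the gene. At NOTCH1, 9 of 17 partners had no other loop, and at JAG1 5 of 12. Over the 37 loops, 37.8% of partner ends (14, Wilson interval 24.1 to 53.9%) lay in a bin with no other loop, against 32.3% of all loop ends in the list, which lies within this interval. The comparison is by loop ends, because a bin with more loops is met more often as a partner.

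The share of loops that ran upstream was 64.7% at NOTCH1 (Wilson interval 41.3 to 82.7%), 33.3% at JAG1 (13.8 to 60.9%) and 50% at JAG2 (18.8 to 81.2%). The loops of NOTCH3 were 2 of 2 upstream (34.2 to 100%). All of these intervals overlap, and a difference in direction between the genes was not tested. Over the 5 genes, 20 of 37 loops ran upstream (54.1%, 38.4 to 69.0%). The median span was 82 kb at NOTCH1 (interquartile range 28 to 342 kb), 89 kb at NOTCH3, 123 kb at JAG1 (79.5 to 380.5 kb) and 71 kb at JAG2 (32 to 77 kb). Of the 37 loops, 2 spanned 1 Mb or more, both at NOTCH1, against 3727 of 31950 in the whole list.

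Most loops started at the bin of the 5′ end or inside the gene. At NOTCH1, 16 of 17 loops started at the bin of the 5′ end or further into the gene, at NOTCH3 2 of 2, at JAG1 12 of 12 and at JAG2 4 of 6. Over the whole length of the RefSeq gene, there were 4.46 loops per 10 kb at NOTCH1, 3.58 at JAG1, 1.44 at JAG2, 0.477 at NOTCH3 and 0.0633 at NOTCH2. The order of the genes was the same by this measure as by the window at the 5′ end, but both count largely the same loops. The order also held with windows of 5 and 20 kb on either side, while with 2 kb JAG2 and NOTCH3 were level at 2 loops. These windows are nested, so none of these counts is a separate check of the order.

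**Figure D4:**
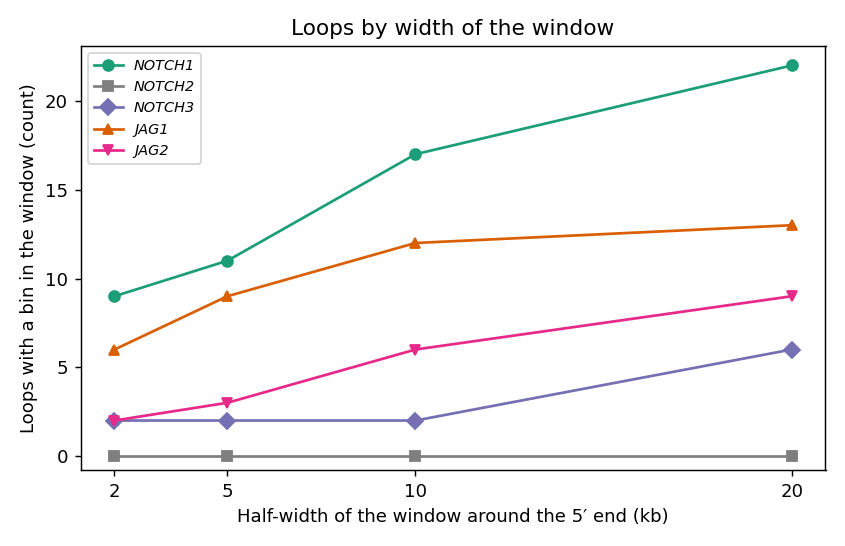
Number of loops with a bin in the window (vertical axis, count) by the half-width of the window around the 5′ end (horizontal axis, kb), 1 line per gene. NOTCH1 has the most loops at every width and NOTCH2 has 0 at every width, while NOTCH3 rises from 2 to 6 between 10 and 20 kb.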

How the data were processed

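H3K27ac HiChIP was done by the authors in KYSE180 cells that had received a non-targeting siRNA (2 libraries). Per the methods and labels, the authors aligned and filtered reads with HiC-Pro on hg19 and used FitHiChIP (Peak-To-All) to find what the methods call active loops associated with p63, without naming the peaks used. They then dropped loops lacking H3K27ac at either end. Versions and thresholds are not given in the sources used here. They deposited 1 list with 2 columns of counts without normalization, which were read, from the usual FitHiChIP column order and the values, as contacts of a loop and coverage of its first bin. The coverage of the first bins sums to 368661, and the depth per library is not shown by it. The list has no q-value.

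The 5′ ends were given as hg19 positions and were not checked against an annotation of that build. Loops were counted with a window of 10 kb either side. Distances run from the 5′ end to bin centres and spans between bin starts. Intervals (95%) are exact Poisson for counts and Wilson for shares. Window counting was checked on a simulated list. Promoter sequences, gene order and gene lengths came from RefSeq (GRCh38.p14), and no position was converted between builds. Alternatives were other window widths, minimum spans and contacts, bin midpoints and other sets of windows. The text names the 5 genes and protein-coding neighbours by gene order, and neighbours are named as background. The members, lists and measures were chosen with earlier results of these data known. Tables were handled with pandas 2.3.3 and numpy 2.4.6 in Python 3.11.15. Intervals came from statsmodels 0.14.6 and scipy 1.17.1, and plots from matplotlib 3.10.9.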

Additional observations from a re-analysis of the deposited data

How the results depend on the processing

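No paired analysis was possible because the deposited list pools the 2 libraries of its single condition, and leaving out a replicate could not be done either. Of 131 values recomputed, 36 moved (counts and shares of windows by over 1.5 times, shares upstream out of their Wilson interval, median spans out of the quartiles of the gene's loops) and 95 did not. Some of the 95 could not move, as the 0 of NOTCH2 cannot rise in narrower windows or under stricter minimums. Contacts largely repeat the counts of loops, so the 95 are not separate checks. With the bin midpoint in place of any overlap, 22 of 22 values stayed. A minimum of 2 contacts left 0 loops and 0 contacts at NOTCH1, NOTCH3 and JAG1, and at JAG2 1 loop with 2 contacts, a span of 20 kb and a share upstream of 100%, a count reached by 100% of the windows then left. Every loop of the genes other than this 1 thus rests on 1 contact. With 2 kb either side there were 9 loops (9 contacts) at NOTCH1, 6 (6) at JAG1 and 2 (2) at JAG2, where 0% ran upstream and 71.0% of windows held as many. With 5 kb there were 11 loops (11 contacts) at NOTCH1 and 3 (4) at JAG2, a number reached by 57.1% of windows. With 20 kb NOTCH3 had 6 loops (6 contacts), reached by 46.5% of windows, the number at JAG1 was reached by 19.0%, and the median span at JAG2 was 78 kb. Within the quartiles, the median span at JAG1 was 256 kb in place of 123 kb with 2 kb either side, and that at NOTCH1 202 kb in place of 82 kb with a minimum span of 20 kb. Fewer loops in narrower windows follow by construction. With a minimum span of 20 kb NOTCH3 had 1 loop (1 contact) of 160 kb. Against tiles with at least 1 anchor, 1.65% held as many loops as NOTCH1, 3.83% as many as JAG1 and 15.2% as many as JAG2. On its own chromosome 7.25% of windows held as many as JAG1. Windows on the 5′ ends of all genes were not run, because no gene positions on hg19 were at hand. The counts of single contacts limit what can be told: a count of 0 has a Poisson interval up to 3.69, and intervals of neighbouring genes overlap.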
